A study of Mus musculus with 9 samples.

Results

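The genes described here encode proteins that carry out or restrain necroptosis, pyroptosis and apoptosis in the mouse abdominal aorta. Members were taken by gene name from the array annotation: Ripk1, Ripk3, Mlkl, Casp4, Casp8, Bax, Bcl2, Bcl2a1a and Fas. Of the 9 listed members, 8 had a probe under their own name and all 8 were among the 16375 genes tested. For Bcl2a1a there was no probe of that name, and a probe named Bcl2a1d, whose listed accessions belong to 3 genes (Bcl2a1d, Bcl2a1b and Bcl2a1a), is given in its place and kept out of the member counts. That substitution was made after the annotation and values of the array had been seen.

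All 9 arrays held total RNA of abdominal aorta from C57BL/6 mice of the uMT genotype, a mutation of the IgM heavy chain that leaves them without mature B cells. In the CaCl2+IgG group, 3 samples came from mice with 0.5 M CaCl2 applied around the aorta, a procedure used to induce aneurysm, and with mouse polyclonal IgG injected into the peritoneum. In the CaCl2 group, 3 samples came from mice given CaCl2 alone, and in the sham group, 3 samples came from mice with saline applied in the same place. Aortas were taken 7 days after CaCl2. The labels used here do not state the day for the sham mice, the ages, or whether each array stands for a separate animal, so the p-values reflect only the scatter among these samples, and that scatter may be technical. RNA was read on 1-colour Agilent arrays, 1 per sample, and their number limits the precision.

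In apoptosis, death receptors such as FAS recruit caspase-8, and mitochondrial pores made by BAX and BAK release factors that activate the executioner caspases; BCL2 and its relatives hold those pores shut. Necroptosis is the lytic death that follows when caspase-8 is inactive: RIPK1 and RIPK3 assemble, RIPK3 phosphorylates MLKL, and MLKL breaches the plasma membrane. Pyroptosis is the lytic death in which inflammatory caspases, caspase-1 and in mouse caspase-11 (encoded by Casp4), cleave gasdermin D. In aneurysm of the abdominal aorta, loss of smooth muscle cells and entry of leukocytes accompany each other, and both kinds of cell carry this machinery.

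With CaCl2, 6 of the 8 measured members were higher than in sham aortas: Ripk3, Mlkl, Casp8, Casp4, Bax and Bcl2. Ripk1 and Fas did not pass the test, and 0 members were lower. A gene was called where limma gave a Benjamini-Hochberg adjusted p under 0.05 over all 16375 genes; 17.6% of those genes were called higher and 19.2% lower, 36.7% in all. The median log2 change was 1.27 over the members and -0.08 over all genes. With CaCl2+IgG against sham, 4 of 8 members were called higher, where 14.9% of all genes were (29.2% in either direction), and with CaCl2+IgG against CaCl2 the count was 0 of 8, where 0% of all genes were called.

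4 sequences carry facts needed to read the values below. The first 2 are the 250 bases upstream of the RefSeq transcription start of Casp4 (GRCm38.p6, chr9:5308599-5308848, plus strand) and Bax (GRCm38.p6, chr7:45466899-45467148, minus strand), each read 5′ to 3′ on the strand of its gene, shown because Casp4 and Bax were the only members with a match to the kappaB motif of NF-kappaB or to the p53 half-site upstream. Capitals mark the matches. The next is the last 30 bases of the 60-base probe for Mlkl on chromosome 8, shown because of its likeness to sequence elsewhere, and the last line is the first 30 bases of the shared Bcl2a1 probe on chromosome 9, shown because it reads several gene copies.
Casp4 upstream: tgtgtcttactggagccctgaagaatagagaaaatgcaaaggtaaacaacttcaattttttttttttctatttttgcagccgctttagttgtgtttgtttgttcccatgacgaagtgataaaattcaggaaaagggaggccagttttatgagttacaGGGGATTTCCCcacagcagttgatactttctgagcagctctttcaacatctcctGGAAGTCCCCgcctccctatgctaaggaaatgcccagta
Bax upstream: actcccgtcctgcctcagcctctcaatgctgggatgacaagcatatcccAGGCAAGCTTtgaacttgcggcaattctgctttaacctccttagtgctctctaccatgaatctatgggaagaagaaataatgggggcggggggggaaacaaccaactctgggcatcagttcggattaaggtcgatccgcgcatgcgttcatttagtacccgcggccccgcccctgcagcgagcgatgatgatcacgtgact
Mlkl probe: tgaatgctggaattaaaggcatagaccacc
Bcl2a1 probe: cacttggcatttccatttacaaacatgaaa

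In the Casp4 window there were 3 kappaB matches, which overlap in part, the first beginning 93 bases before the start site. In the Bax window the p53 half-site begins 201 bases before the start. Among 32851 RefSeq windows of 250 bases, searched on both strands, 7.25% held a kappaB match and 7.13% a p53 half-site. The interferon-type motif, GAAA followed after 2 bases of any kind by GAAA, present in 2.98% of all windows, was found in 0 of the 11 windows of the 9 members. The motif TTCNNNGAA, present in 7.02%, was found once upstream of Fas and 2 times in the second of the windows of Ripk1. A match is a description of letters and not a site of binding.

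**Figure D1:**
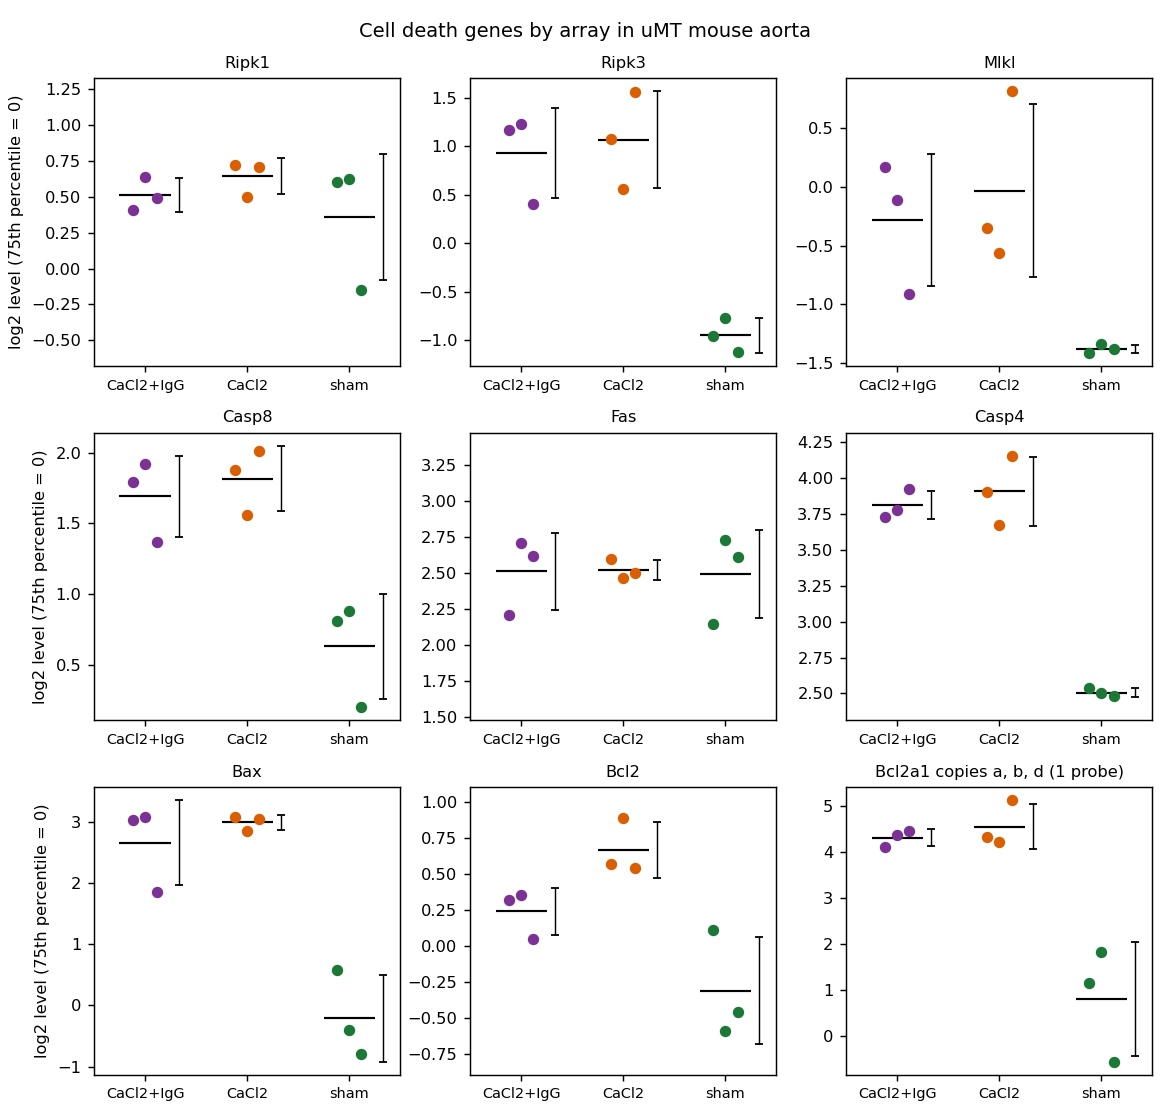
Level of each gene on each array, as log2 of the processed signal with the 75th percentile of the array at 0 (vertical axis, a separate range in each panel), for CaCl2+IgG, CaCl2 and sham (3 arrays each). Points are arrays, horizontal bars are means and whiskers are SD; the arrays of both CaCl2-treated groups lie above the sham arrays for Ripk3, Mlkl, Casp8, Casp4, Bax and the Bcl2a1 copies, and the groups overlap for Ripk1 and Fas.

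Necroptosis begins with the kinase pair RIPK1 and RIPK3. Levels are given as log2 of the signal with an array's 75th percentile set to 0. Ripk3 stood at 1.17, 1.23 and 0.40 with CaCl2+IgG, 1.08, 0.56 and 1.56 with CaCl2, and -0.96, -0.77 and -1.13 in sham aortas. Every array of the CaCl2-treated groups thus lay above every sham array, and the 2 treated groups overlapped. With CaCl2 alone Ripk3 rose by 2.02 ± 0.30 (log2 change ± SE, n = 3 per group, limma adjusted p = 0.00206), a 4.05-fold difference with a 95% interval of 2.51 to 6.52. With CaCl2+IgG against sham the log2 change was 1.88 ± 0.30 (adjusted p = 0.00298); both comparisons share the sham arrays.

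RIPK1, its partner, was not called. Ripk1 had log2 levels of 0.41, 0.64 and 0.49 with CaCl2+IgG, 0.72, 0.50 and 0.71 with CaCl2, and 0.60, 0.62 and -0.15 in sham aortas. Of the 3 sham arrays, 2 lay among the treated ones and replicate 3 lay below all of them. The log2 change in CaCl2 against sham was 0.29 ± 0.21 (limma adjusted p = 0.318), with an interval from -0.20 to 0.78.

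MLKL, the pore-forming executioner of necroptosis, is the last of the chain. The log2 level of Mlkl was 0.17, -0.11 and -0.91 with CaCl2+IgG, -0.35, -0.56 and 0.81 with CaCl2, and -1.41, -1.34 and -1.38 in sham aortas. The sham arrays lay close together and below all others, while the treated arrays of each group were far apart. In CaCl2 against sham Mlkl rose by 1.34 ± 0.38 on the log2 scale (limma adjusted p = 0.0273, 2.54-fold, interval 1.38 to 4.66). In CaCl2+IgG against sham the change was 1.10 ± 0.38 and was not called (adjusted p = 0.0635), although the arrays did not overlap.

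Among the 6 calls in CaCl2 against sham, that of Mlkl was the one lost in some of the other settings tried. In CaCl2 against sham the adjusted p was 0.0684, 0.0652 and 0.0706 without sham replicates 1, 2 and 3 in turn, and 0.0599 without CaCl2 replicate 3, with a log2 change of 0.92. With a block for array row (the position within a slide) the change was 1.12 (adjusted p = 0.138). All CaCl2 arrays were in row 1 and sham replicates 1 and 2 in row 2 of the same slide. The block can thus part row from treatment only through the CaCl2+IgG arrays and sham replicate 3, which was on another slide. Without CaCl2+IgG replicate 3, the change in CaCl2+IgG against sham was 1.41 (adjusted p = 0.0195). The end of its probe, printed above, resembles the rodent B1 short interspersed repeat. A match of at least 30 bases at 80% identity or more was found for this probe in 35 of 32851 upstream windows (0.107%), and in 0 to 11 windows for the other member probes. The part that such repeats take in its signal was not tested.

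Caspase-8 stands where these routes part: it starts apoptosis from death receptors and cleaves RIPK1 and RIPK3. Casp8 had log2 levels of 1.79, 1.92 and 1.37 with CaCl2+IgG, 1.88, 1.56 and 2.01 with CaCl2, and 0.81, 0.88 and 0.20 in sham aortas. All treated arrays exceeded all sham arrays. Casp8 rose by 1.19 ± 0.23 with CaCl2 (limma adjusted p = 0.00609, 2.29-fold) and by 1.06 ± 0.23 with CaCl2+IgG (adjusted p = 0.011), both against sham on the log2 scale.

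Fas, the death receptor among the members, is the one whose level moved least. Its log2 level was 2.21, 2.71 and 2.62 with CaCl2+IgG, 2.60, 2.47 and 2.50 with CaCl2, and 2.15, 2.73 and 2.61 in sham aortas, so the CaCl2 arrays lay within the range of each other group. The log2 change in CaCl2 against sham was 0.03 ± 0.19 (limma adjusted p = 0.918), with an interval from -0.41 to 0.47. A change smaller than that interval was not detectable at this spread.

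On the pyroptotic side, Casp4 encodes caspase-11, which binds cytosolic lipopolysaccharide and cleaves gasdermin D. Casp4 had log2 levels of 3.73, 3.78 and 3.92 with CaCl2+IgG, 3.90, 3.67 and 4.15 with CaCl2, and 2.54, 2.50 and 2.48 in sham aortas. The groups were tight and the sham arrays stood apart from the others by over 1 log2 unit. The rise was 1.40 ± 0.15 with CaCl2 (limma adjusted p = 0.000658, 2.64-fold) and 1.31 ± 0.15 with CaCl2+IgG (adjusted p = 0.000841), the smallest adjusted p of any member in both. A second Casp4 probe, which begins 5 bases away and so is no independent reading, gave a log2 change of 1.34 in CaCl2 against sham.

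BAX, the pore former of the mitochondrial outer membrane, had the greatest change among the 8. Bax stood at log2 levels of 3.03, 3.09 and 1.86 with CaCl2+IgG, 3.08, 2.86 and 3.05 with CaCl2, and 0.58, -0.41 and -0.80 in sham aortas. Replicate 3 of CaCl2+IgG was more than 1 log2 unit below its group, yet above every sham array. Bax rose by 3.21 ± 0.41 with CaCl2 (limma adjusted p = 0.00116), a 9.25-fold difference with an interval of 4.81 to 17.8, and by 2.87 ± 0.41 with CaCl2+IgG (adjusted p = 0.00194, 7.3-fold).

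Its opponent Bcl2, which keeps BAX inactive, moved the same way and by less. Bcl2 had log2 levels of 0.32, 0.35 and 0.05 with CaCl2+IgG, 0.57, 0.89 and 0.54 with CaCl2, and 0.11, -0.59 and -0.46 in sham aortas. The CaCl2 arrays lay above all others, and the CaCl2+IgG arrays overlapped sham replicate 1. Bcl2 rose by 0.98 ± 0.21 with CaCl2 (limma adjusted p = 0.00868, 1.97-fold), while CaCl2+IgG against sham gave 0.55 ± 0.21 and no call (adjusted p = 0.0781). Without sham replicate 1 that change was 0.77 and was called (adjusted p = 0.0215).

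The Bcl2a1 genes are near-identical mouse copies that encode A1, a relative of BCL2 that opposes apoptosis in leukocytes. The shared probe, which cannot tell copies a, b and d apart, had log2 levels of 4.12, 4.38 and 4.47 with CaCl2+IgG, 4.34, 4.22 and 5.13 with CaCl2, and 1.16, 1.84 and -0.55 in sham aortas. All treated arrays lay more than 2 log2 units above the highest sham array. Its rise was 3.75 ± 0.54 with CaCl2 (limma adjusted p = 0.00182), or 13.4-fold with an interval of 5.69 to 31.7, and 3.51 ± 0.54 with CaCl2+IgG (adjusted p = 0.00263). Without sham replicate 3 these log2 changes were 3.07 and 2.83, and with the array row as a block that with CaCl2 was 4.53; all 3 were called. Bcl2a1c, a copy with a probe of its own, changed by 3.75 on the log2 scale with CaCl2 (adjusted p = 0.00135), and on 2 of 3 sham arrays it was well above background.

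Injected IgG gave no call for any member, or for any of the 16375 genes, in CaCl2+IgG against CaCl2 with limma; 242 genes (1.48%) had an unadjusted p under 0.05. The member log2 changes were all negative, 8 of 8, with a median of -0.13 against -0.02 over all genes. The widest interval among the 8 was that of Bax, -0.34 with -1.28 to 0.60, and the narrowest that of Casp4, -0.10 with -0.43 to 0.24. Bcl2 was the one member whose CaCl2+IgG arrays all lay below its CaCl2 arrays, with a change of -0.43 (interval -0.90 to 0.05, unadjusted p = 0.0732); 2.42% of all genes were lower without overlap. Ripk3 changed by -0.14 (-0.82 to 0.55), Mlkl by -0.25 (-1.13 to 0.63), Casp8 by -0.13 (-0.66 to 0.40), Ripk1 by -0.13 (-0.62 to 0.36) and Fas by -0.01 (-0.46 to 0.43). These intervals leave room for changes in either direction, and the p-values do not show that the groups were alike.

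**Figure D2:**
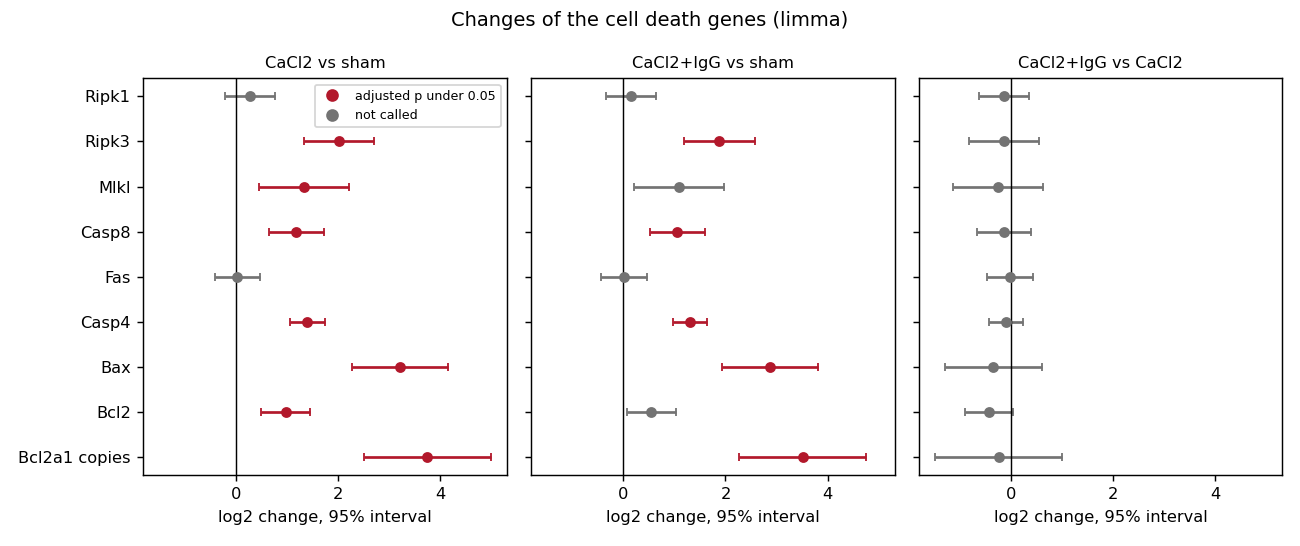
Log2 change of each gene in CaCl2 against sham, CaCl2+IgG against sham and CaCl2+IgG against CaCl2 (horizontal axis), with 95% intervals from limma; red points have an adjusted p under 0.05 and grey points do not. Bax and the Bcl2a1 copies change most against sham, Ripk1 and Fas cross 0 in every panel, and all intervals of the right panel cross 0.

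Single arrays touch several of these values. On CaCl2+IgG replicate 3 the second principal component was -74.1, against 0.6 to 15.8 on the other 8 arrays. Without that array, CaCl2+IgG against CaCl2 gave log2 changes of 0.06 for Bax, 0.13 for Ripk3, 0.07 for Mlkl and 0.03 for Casp8, so these 4 signs turned while none was called. Without CaCl2 replicate 3, Ripk3 changed by 0.11, Mlkl by 0.18 and Casp4 by 0.03, and without CaCl2+IgG replicate 1 Fas changed by 0.14, so the 8 negative signs depend on single arrays. Against sham without CaCl2+IgG replicate 3, Bax changed by 3.27 and Ripk3 by 2.15 (limma adjusted p = 0.000748 and 0.00126), and 5 members were called in place of 4.

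Where the arrays of a group do not overlap those of sham, the background share is itself high: 6 of 8 members with CaCl2, where 24.8% of all genes were higher without overlap, and 5 of 8 with CaCl2+IgG, where 20.5% were. In the other direction it was 0 members in each, where 32% and 24.1% of all genes were lower without overlap. The members differed among themselves in level pattern. By root mean square difference of centred log2 levels over the 9 arrays, among 14549 genes with official symbols, the genes most like Ripk3 were Stx11 (0.14) and Myo7a (0.16), those most like Mlkl were Ddx58 (0.20) and Psmb10 (0.22), and those most like Bax were Pla2g15 (0.17) and St8sia6 (0.24). Zfp217 (0.09) and Mdfic (0.10) were nearest to Casp4, Pnpla7 (0.08) and Cd47 (0.09) to Casp8, and Diras2 (0.14) and Samd14 (0.15) to Bcl2. For Fas they were Pus3 and Frat2 (0.11 each), for Ripk1 Rbbp5 and Gtpbp8 (0.11 each), and for the shared Bcl2a1 probe Bcl2a1c (0.07) and Cdca3 (0.20). These likenesses are descriptions of 9 arrays.

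The wider pathways were read from 5 lists. In CaCl2 against sham, 12 of 19 tested pyroptosis and inflammasome genes were called higher and 0 lower, where 17.6% and 19.2% of all genes were, with a median log2 change of 1.17 against -0.08 over all genes. Among the 12, Il1b, Nlrp1b and Aim2 entered the test only through CaCl2-treated groups and could hardly have been called lower. Il1b, the cytokine released by pyroptotic cells, had log2 levels of 2.23, 0.90 and 3.05 with CaCl2 and -3.69, -4.24 and -4.32 in sham aortas, where it was well above background on 1 of 3 arrays. Its log2 change was 6.15 (limma adjusted p = 0.000453), on a sham level near background. Casp1, the inflammasome caspase, rose by 1.52 ± 0.26 (adjusted p = 0.00344) and Gsdmd, the pore former that both inflammatory caspases cleave, by 1.01 ± 0.20 (adjusted p = 0.00703). Mefv, which encodes the pyrin sensor, rose by 4.96 (adjusted p = 0.00078). Its sham levels were low too, at -2.86, -4.02 and -4.41. The sensors Nlrp1b and Aim2 were not well above background on any sham array and were at least 3.56-fold and at least 1.78-fold higher with CaCl2 (adjusted p = 0.000889 and 0.00145); such a bound compares the bright mean with the lowest signal that counts as above background on each sham array, or the probe itself where that is higher. Of 2 kept probes for Mefv, 1 gave 1.85. With another background correction (normexp), Nlrp1b changed by 0.44 and Aim2 by 0.14 on the log2 scale and neither was called (adjusted p = 0.16 and 0.516), while Il1b changed by 3.98 and Mefv by 3.1, both called. That correction, here and below, adds an offset of 50 to each signal, which shrinks the log2 changes of dim probes. A call lost there cannot tell a shrunken change from none.

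Of 21 tested genes of necroptosis and death receptor signalling, 8 were called higher, 1 lower and 12 not, with a median log2 change of 0.43 (17.6% of all genes higher, 19.2% lower, median -0.08). Among the 8, Tnf, Tlr3 and Fasl entered the test only through CaCl2-treated groups and could hardly have been called lower. Tnfrsf1b, the second TNF receptor, had log2 levels of 0.33, 0.59 and 1.15 with CaCl2 and -2.21, -1.79 and -2.29 in sham aortas, and rose by 2.79 ± 0.26 (limma adjusted p = 0.000453). Tnf was not well above background in sham aortas and was at least 5.01-fold higher (adjusted p = 9e-04). Tnfaip3, a brake on NF-kappaB, rose by 2.50 (adjusted p = 0.00146), Tlr3, a sensor of double-stranded RNA, by 1.21 (adjusted p = 0.00871) against sham levels that were well above background on 1 of 3 arrays, and Zbp1, a nucleic acid sensor that engages RIPK3, by 2.70 (adjusted p = 0.0135). Fasl, the ligand of FAS, rose by 2.24 (adjusted p = 0.0486), a call that was lost without sham replicate 3 (adjusted p = 0.0691). The adaptor Fadd (0.37, adjusted p = 0.131), the caspase-8 inhibitor Cflar (-0.09, adjusted p = 0.691) and the first TNF receptor Tnfrsf1a (0.42, adjusted p = 0.0657) did not pass. The death receptor Tnfrsf10b was the 1 lower gene (-0.52, adjusted p = 0.0169), and with arrays scaled to their medians its change was -0.05 and not called; without sham replicate 3 it was -0.49 with an adjusted p of 0.0549. With the normexp background, Tlr3 (0.05, adjusted p = 0.77) and Fasl (0.53, adjusted p = 0.166) were not called and Tnf changed by 0.79. A second probe for Zbp1 gave 5.59.

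The BCL2 family split by direction: of 18 tested, 9 were called higher, 3 lower and 6 not, beside 17.6% higher and 19.2% lower over all genes, and the median log2 change was 0.68 against -0.08. The count includes the shared Bcl2a1 probe. It also includes Bcl2l11, Bcl2a1c and Pmaip1, which entered the test only through CaCl2-treated groups and could hardly have been called lower. Bak1, the other mitochondrial pore former, had log2 levels of 2.52, 2.41 and 3.16 with CaCl2 and -0.73, 0.13 and 0.24 in sham aortas, and rose by 2.82 ± 0.82 (limma adjusted p = 0.029). On CaCl2+IgG arrays Bak1 was at 2.45, 2.55 and -0.83, so that the change against sham was 1.51 and not called (adjusted p = 0.194), and 2.62 without replicate 3 (adjusted p = 0.00121). Without sham replicate 3, the change in CaCl2 against sham was 2.99 and not called (adjusted p = 0.061). The BH3-only gene Bmf (1.18, adjusted p = 0.00149) and the BAX relative Bok (1.30, adjusted p = 0.00126) rose, and Bcl2l11, which encodes the BH3-only protein BIM, was at least 1.87-fold higher (adjusted p = 0.0127), but changed by -0.04 on the log2 scale with the normexp background (adjusted p = 0.848). Lower were the protective genes Bcl2l2 (-0.73, adjusted p = 0.00629) and Bcl2l1 (-0.56, adjusted p = 0.0315) and the BH3-only gene Bik (-0.90, adjusted p = 0.0191), but with median scaling these 3 were at -0.26, -0.08 and -0.43 and none was called. Without sham replicate 3 the call for Bcl2l1 was lost too (adjusted p = 0.0927), and Bik had an adjusted p of 0.0541 with quantile normalization. Mcl1 changed by 0.28 (adjusted p = 0.109), with 1.23 on a second probe. A second probe for Bcl2l1 gave -1.1.

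Among caspases and apoptosome genes, 4 of 19 were called higher and 1 lower, with a median log2 change of 0.22; the share called higher lies near the 17.6% of all genes, and 19.2% of all genes were lower. Casp9, the initiator caspase of the apoptosome, changed by 0.41 and did not pass (limma adjusted p = 0.0538). The genes called higher were Birc5, a mitotic gene of the inhibitor of apoptosis family (2.27, adjusted p = 0.00274), the executioner Casp6 (0.97, adjusted p = 0.00892), the cell cycle inhibitor Cdkn1a (1.01, adjusted p = 0.0198) and Apaf1, the scaffold of the apoptosome (1.01, adjusted p = 0.0297). Without sham replicate 3 the count called higher was 2, with Cdkn1a at an adjusted p of 0.0586 and Apaf1 at 0.0738; Apaf1 was also lost with the normexp background (0.39, adjusted p = 0.0876). The 3 probes for Cdkn1a ranged from 0.04 to 2.36. Casp14, a caspase of keratinocytes, was lower (-3.18, adjusted p = 0.0113), and by -1.24 with the normexp background. Its log2 levels were -4.77, -7.09 and -4.41 with CaCl2 and -1.73, -3.03 and -1.95 in sham aortas. With CaCl2 it was well above background on 2 of 3 arrays, so the size of this change rests on signal near background. Of 9 tested ferroptosis genes 2 were called higher, a share near the 17.6% of all genes, and their median log2 change was -0.04 against -0.08 over all genes. The 2 were the haem oxygenase Hmox1 (4.41, adjusted p = 0.00303, with 2.08 on a second probe) and the cyclooxygenase Ptgs2 (1.82, adjusted p = 0.0296). Without sham replicate 3 the count was 1, with Ptgs2 at an adjusted p of 0.0949.

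**Figure D3:**
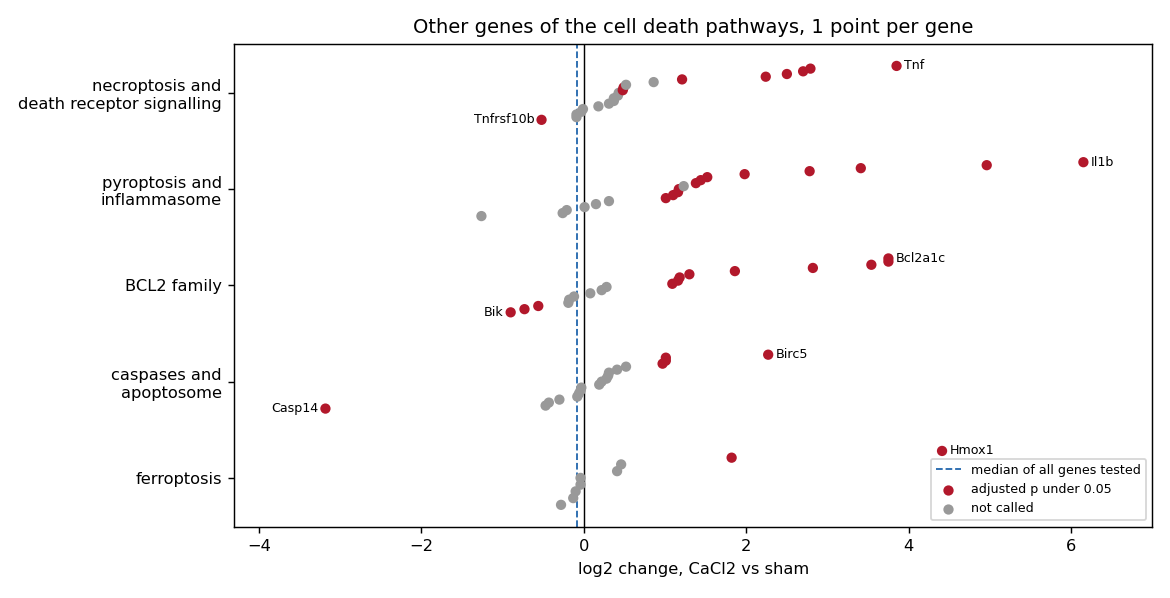
Fitted log2 change in CaCl2 against sham (horizontal axis) of each tested gene on the 5 pathway lists, 1 point per gene; red points have a limma adjusted p under 0.05, grey points do not, and the dashed line is the median of all genes tested. Pyroptosis genes reach furthest right with Il1b at 6.15, and the fitted value of Tnf is no bound on its change.

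With CaCl2+IgG against sham the lists gave 11 higher and 0 lower of 19 for pyroptosis, 6 and 1 of 21 for necroptosis and death receptors, 8 and 3 of 18 for the BCL2 family, 3 and 2 of 19 for caspases and 2 and 0 of 9 for ferroptosis. Over all genes 14.9% were called higher and 14.4% lower in this comparison, so the caspase and ferroptosis counts lie near the background. Pycard, the inflammasome adaptor, rose by 1.42 (limma adjusted p = 0.00145), the nuclease gene Endog was lower by a log2 change of -0.54 (adjusted p = 0.033) and Trp53, which encodes p53, by -0.66 (adjusted p = 0.0366). Without CaCl2+IgG replicate 3 the caspase list had 6 called higher and 0 lower, with Endog at an adjusted p of 0.0592 and Trp53 at 0.068. Both were also lost with median scaling (0.561 and 0.437) and without sham replicate 3 (0.0597 and 0.115). In CaCl2+IgG against CaCl2, 0 genes of any of the 5 lists were called.

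Markers of cell types moved with CaCl2 as well. Their counts stand beside 17.6% of all genes called higher and 19.2% lower in CaCl2 against sham. The adipocyte and skeletal muscle counts lie near these shares. In bulk tissue, fewer cells of a type and less RNA per cell cannot be told apart. The summed linear level of 15 monocyte and macrophage markers, of which 14 were well above background on all arrays, was 368 to 456 with CaCl2+IgG, 323 to 402 with CaCl2 and 240 to 257 in sham aortas (75th percentile at 1), and 11 of 15 were called higher and 2 lower with CaCl2. In sham aortas most of that sum is 1 gene, Itgam, at log2 levels of 7.35, 7.25 and 7.65. Itgam was at 6.54, 6.28 and 7.57 with CaCl2+IgG and 6.40, 6.46 and 5.35 with CaCl2. It was 1 of the 2 called lower (-1.35, limma adjusted p = 0.0288), while the list's median log2 change was 2.38, so the sum understates the rise of most of these markers. T and NK cell markers summed to 19.1 to 25.1 with CaCl2+IgG, 19 to 36.3 with CaCl2 and 9.46 to 11.1 in sham aortas, with 12 of 17 called higher and 2 lower. Of the 17, 10 were well above background on all arrays. Among those called higher, Cd3d, Cd3g, Cd8a, Cd8b1, Ncr1, Klrb1c and Gzmb were not. Each of these was lowest in sham aortas and could hardly have been called lower. All 14 smooth muscle markers were called lower, and their sum was 984 to 1330 with CaCl2+IgG, 891 to 1480 with CaCl2 and 3090 to 3490 in sham aortas. Neutrophil markers summed to 140 to 347 with CaCl2+IgG, 138 to 163 with CaCl2 and 216 to 280 in sham aortas, with 4 of 11 called higher, 0 lower and 4 of 11 well above background on all arrays. Most of that sum is 1 gene, Csf3r, with log2 levels of 6.99, 7.07 and 8.36 with CaCl2+IgG, 7.10, 7.26 and 6.97 with CaCl2 and 7.80, 7.73 and 8.11 in sham aortas (CaCl2 against sham -0.77, not called, adjusted p = 0.104). The list's median log2 change was 1.23, and S100a8 and S100a9 changed by 4.54 and 5.43 (adjusted p = 0.000364 and 0.000972), so the sum and the calls differ in sign. Their sham levels were low, at -4.29, -3.07 and -3.49 for S100a8 and -5, -2.99 and -2.03 for S100a9. The 4 called higher were these 2, Cxcr2 and Mpo. None of the 4 was well above background on all arrays, and they could hardly have been called lower. The sums of 12 fibroblast markers were 2210 to 2620 with CaCl2+IgG, 2100 to 2300 with CaCl2 and 1660 to 2050 in sham aortas, and those of 12 endothelial markers 122 to 168 with CaCl2+IgG, 122 to 154 with CaCl2 and 152 to 176 in sham aortas. With CaCl2, 3 fibroblast markers were called higher and 0 lower. The endothelial list was split, with 3 called higher, 2 lower and a median log2 change of 0.02. The 10 B and plasma cell markers summed to 40.3 to 59.6 with CaCl2+IgG, 21.3 to 37.2 with CaCl2 and 8.34 to 10 in sham aortas. Sums of 7 adipocyte markers were 31.4 to 44.2 with CaCl2+IgG, 34.3 to 54.9 with CaCl2 and 61 to 103 in sham aortas, with 1 called higher and 2 lower with CaCl2. Sums of 4 skeletal muscle markers were 8.16 to 8.68 with CaCl2+IgG, 5.99 to 14.8 with CaCl2 and 40.6 to 52.4 in sham aortas, with 1 called lower and 1 of 4 well above background on all arrays. Nearly all of that sum is Acta1, the 1 gene called lower (-2.48, limma adjusted p = 0.00107). The list's median log2 change was -0.14. The part that these shifts take in the changes of the cell death genes was not tested.

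**Figure D4:**
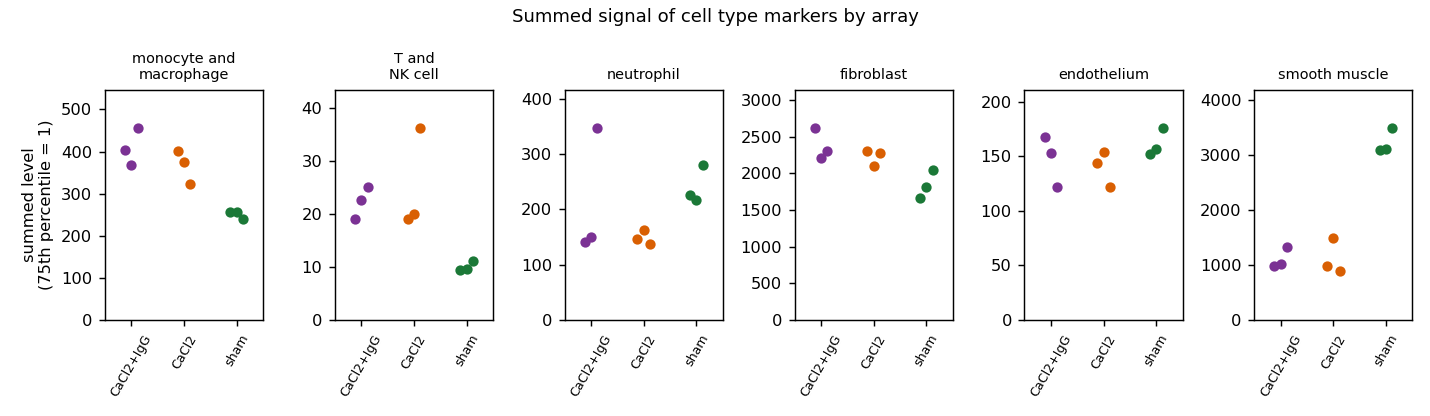
Summed linear level of the markers of 6 cell types on each array (vertical axis from 0, 75th percentile of the array at 1), for CaCl2+IgG, CaCl2 and sham with 3 arrays each. Monocyte, macrophage, T and NK cell sums are higher in both CaCl2-treated groups and smooth muscle sums are lower, at 891 to 1480 with CaCl2 against 3090 to 3490 in sham aortas. The neutrophil sum is mostly Csf3r, and the monocyte and macrophage sum in sham aortas is mostly Itgam.

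Signal was well above background for 54.9% to 59.9% of probes per array, and 0 probes were saturated. All members, and the shared Bcl2a1 probe, were well above background on all 9 arrays. Sham replicate 3 sat alone on a second slide, scanned separately; without it, Ripk3, Casp8, Casp4, Bax and Bcl2 were still called higher with CaCl2 and Mlkl was not.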

How the data were processed

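Abdominal aorta RNA of 9 samples was hybridised to 1-colour Agilent arrays. The deposited scanner files hold spot intensity on a linear scale, background-subtracted and detrended by Feature Extraction 10.7.1.1 per the file headers; the submitters' processing notes name 9.5.1.1. Intensity values on a linear scale also make up the series table that the authors deposited; its 9 columns share the same sorted values, and it was an alternative. The labels name 2 RNA purification kits. Columns not mapped to a sample numbered 0.

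Here, log2 processed signal minus each array's 75th percentile over non-control spots was used. Control and outlier spots were dropped and saturated ones retained. A probe entered if every array of 1 group or more showed it well above background (32166 of 55681, of which 10065 had no symbol). Genes that entered only through CaCl2-treated groups could thus hardly be called lower against sham. Of all probes 27235 were named by accession and 3581 by symbol through RefSeq gene names of assembly GRCm38.p6, a further 1645 by the files only, and 23220 had no symbol. The brightest probe stood for a gene. Groups came from sample titles. The fit was limma 3.58.1 in R 4.3.3 with version 1.17.8 of the data.table package, 3 groups, 6 residual degrees of freedom, Benjamini-Hochberg over 16375 genes. In simulated data for CaCl2 against sham, 50% of 200 genes changed by 1 log2 unit were recovered at the same number of genes. Upstream sequences are from RefSeq; probe likeness was searched with blastn 2.17.0. The files state no build for probe positions, which are not given.

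Members and lists were chosen with earlier results of these data known. Named list genes were up to 4 called per list and direction by adjusted p, plus a fixed set. Some genes of that set are not reported here.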

Additional observations from a re-analysis of the deposited data

How the results depend on the processing

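Results were recomputed under 21 alternatives per comparison. For the tested members and the shared Bcl2a1 probe, none of these turned the sign of a called value, and 18 signs turned among values called under neither setting. Signs of the list genes were not counted, and the called rise of Bcl2l11 had a negative sign with the normexp background. Genes called in CaCl2 against sham numbered 6017, 3405 with array row as a block, 3930 to 7387 with 1 array left out, 3930 without sham replicate 3 and 3987 without CaCl2 replicate 1. On their shared slide the CaCl2 and sham arrays lay in different rows, so the row block does not cleanly part position from treatment. In CaCl2+IgG against sham they numbered 4785, 2980 with median scaling and 3027 to 6648 with 1 array left out. In CaCl2+IgG against CaCl2 the 0 became 2 without CaCl2+IgG replicate 1, the clone 1700029F12Rik and Olfr701, named after their values were seen (0 to 2 over all arrays left out). Members called higher with CaCl2 were 6, and 5 in each setting that lost Mlkl. Those settings were the array row block (log2 change 1.12, adjusted p = 0.138), the replicate block (0.0549) and leaving out any sham array or CaCl2 replicate 3. Replicate numbers did not pair the samples: same-numbered arrays correlated from -0.20 to 0.22, with 3 of 9 pairs over 0.1. With the replicate block 5759, 0 and 4668 genes were called in CaCl2 against sham, CaCl2+IgG against CaCl2 and CaCl2+IgG against sham. Median scaling moved the all-gene median in CaCl2 against sham to 0.39, against -0.08, and the share of calls that were higher to 77.3%, against 47.8%; no filter on dim probes gave 32.8%. In CaCl2+IgG against sham median scaling gave 71.8%, against 50.9%. List counts without CaCl2+IgG replicate 3 or sham replicate 3 were chosen after seeing the data. Scan time was not run apart from slide, since both separate the same array, and the slide can be taken out only by leaving out sham replicate 3. Low signal over background limits Il1b, Mefv, Tnf, Tlr3, Nlrp1b, Aim2, Bcl2l11 and Fasl in sham aortas, and Casp14 with CaCl2. The normexp alternative used an offset of 50, which shrinks changes of such dim genes, so the calls lost there are no separate evidence on them.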
